A study of Mus musculus with 32 samples.

Results

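Caspases are proteases that cut their substrates after aspartate, and 6 genes of the family (Casp1, Casp2, Casp6, Casp8, Casp9 and Casp12) were followed here through mouse pregnancy together with Xiap and Bcl2, 2 genes whose products hold cell death back. The genes were chosen by name, with earlier results of these data known. All probes that carry one of these symbols in the deposited log2 values were used. This gave 8 of the 13439 genes measured and 16 of the 20169 probes. Uterine RNA was hybridised to 32 Illumina MouseRef-8 v2 bead arrays, 1 FVB/N mouse per array with that mouse's RNA samples combined. The groups were pregnant mice of E6.5 or E8.5, with 4 each, pregnant mice of E10.5, E12.5, E15.5 or E17.5, with 5 each, and 4 non-pregnant mice (NP), where E counts embryonic days from the vaginal plug. No treatment or genetic change is named for any group, and the labels give no age for single mice. From pregnant mice the wall of the uterus was taken at implantation sites, embryo and placenta were removed and decidua was scraped off. Prl8a2, a decidua marker, was still detected on every array from E10.5 to E17.5. NP mice were taken at random, so that pregnancy and dissection cannot be told apart in any comparison with NP.

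Apoptosis starts along a pair of routes. Ligands such as FasL bind death receptors and recruit the initiator caspase-8, whereas damaged mitochondria release cytochrome c, which with Apaf1 activates the initiator caspase-9, and both routes converge on executioner caspases that dismantle the cell. Bcl2 and its survival relatives keep mitochondria closed against death relatives such as Bid and Bim, Xiap binds and blocks active caspases, and caspase-1 serves a separate task, the maturation of interleukin-1 beta and interleukin-18 in the inflammasome. In the pregnant uterus, caspases are known both for cell death in the decidua and for roles in the quiescent myometrium that do not end in cell death. All caspases are made as inactive precursors, so an RNA level says nothing about protease activity.

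Between 13280 and 14357 probes per array were detected, meaning a detection p-value below 0.05 against the array's negative controls. The 8 smooth muscle markers were detected on all 32 arrays. In 6 libraries (E10.5 replicate 4, E12.5 replicate 3, E15.5 replicates 2 and 3, E17.5 replicates 2 and 5) genes of placenta and yolk sac lay more than 0.5 log2 above their time point's median. This margin is relative to the time point. The E17.5 replicates 1, 3 and 4, with means of 6.34, 6.56 and 6.37, were not among the 6, although E12.5 replicate 3 had 6.32. Calls of the 8 genes were recomputed without the 6 libraries and those lost are given below, while calls of other genes were not recomputed. Because whole tissue was measured, fewer cells of a type and less RNA per cell cannot be told apart.

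Values below are log2 intensities, and differences are the later time point minus the earlier one, or pregnant minus NP, with the standard error (SE) of limma's fit over all 13439 genes. A gene was called where its Benjamini-Hochberg adjusted p was at most 0.05. Over the 6 pregnant time points 4 of the 8 genes, Casp1, Casp2, Casp8 and Bcl2, passed the moderated F test, against 37.9% of all genes. In at least 1 of the 15 pairs of pregnant time points 5 of the 8 differed, against 50.5% of all genes, the fifth being Casp12. Both shares lay near those over all genes. The direction split the 4 genes. Casp1 and Casp8 were lowest at E6.5 and higher from E8.5 onwards, whereas Casp2 and Bcl2 were high at NP and E6.5 and low from E10.5 to E17.5.

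**Figure D1:**
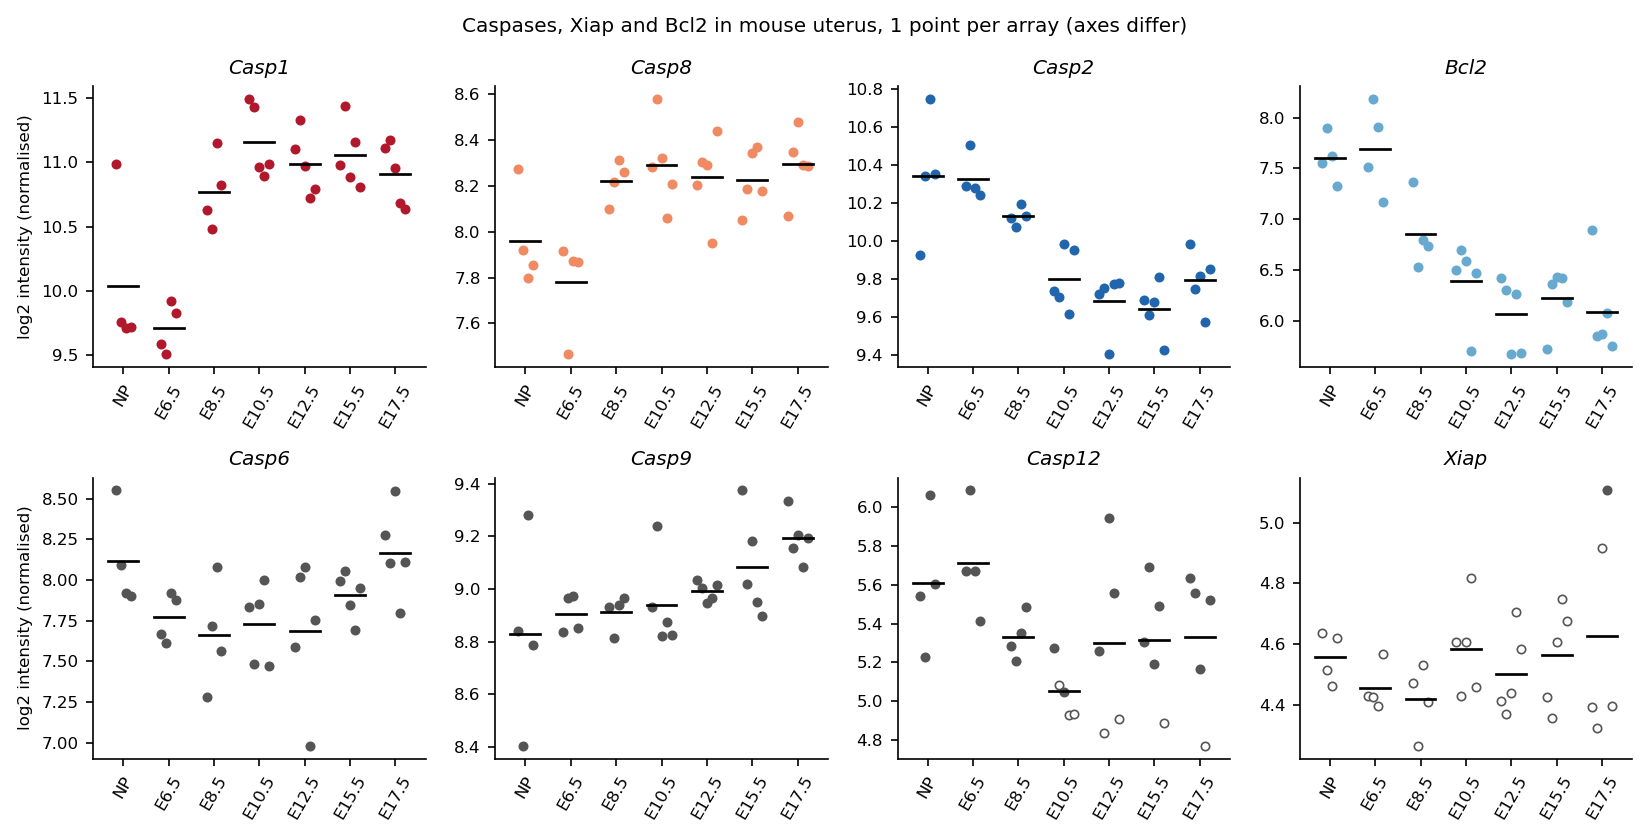
Normalised log2 intensity (vertical axes, which differ between panels) of the 8 genes by time point, 1 point per array and a bar at the mean of each group; filled points were detected and open points were not. Casp1 and Casp8 sit lowest at E6.5 and Casp2 and Bcl2 step down between E6.5 and E10.5, while Xiap was detected on 1 array.

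Since these 4 genes moved in a pair upwards and a pair downwards, their promoters are shown to put the sequences beside the pattern. They are the 250 bases before the RefSeq start site in build GRCm38.p6, printed 5' to 3' on the gene's own strand, and all 8 genes were matched in the RefSeq promoter table. Capitals mark matches, on either strand, to any of 8 motifs. These were the interferon response element, taken as 2 GAAA separated by any 2 bases, the STAT site TTCNNNGAA, the GC box GGGCGG, the CCAAT box, the TATA box TATAAA, the E-box CACGTG, the ETS core CCGGAAG, and AGAACA, which the progesterone and glucocorticoid receptors recognise.
Casp1, chr9:5298267-5298516, plus strand: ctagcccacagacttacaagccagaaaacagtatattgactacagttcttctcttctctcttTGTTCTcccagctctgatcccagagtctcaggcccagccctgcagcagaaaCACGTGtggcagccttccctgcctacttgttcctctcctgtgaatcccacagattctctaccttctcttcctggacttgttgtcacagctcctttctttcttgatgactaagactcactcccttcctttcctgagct
Casp8, chr1:58802252-58802501, plus strand: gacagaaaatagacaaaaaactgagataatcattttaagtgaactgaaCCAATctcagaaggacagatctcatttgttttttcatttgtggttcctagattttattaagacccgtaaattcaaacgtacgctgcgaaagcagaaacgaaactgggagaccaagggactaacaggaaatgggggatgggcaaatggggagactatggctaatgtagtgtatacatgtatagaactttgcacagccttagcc
Casp2, chr6:42264735-42264984, plus strand: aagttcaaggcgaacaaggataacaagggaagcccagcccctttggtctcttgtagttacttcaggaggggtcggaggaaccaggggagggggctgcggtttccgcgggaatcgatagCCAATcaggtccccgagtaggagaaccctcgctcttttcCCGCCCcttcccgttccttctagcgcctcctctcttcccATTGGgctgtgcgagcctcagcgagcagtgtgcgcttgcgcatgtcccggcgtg
Bcl2, chr1:106714291-106714540, minus strand: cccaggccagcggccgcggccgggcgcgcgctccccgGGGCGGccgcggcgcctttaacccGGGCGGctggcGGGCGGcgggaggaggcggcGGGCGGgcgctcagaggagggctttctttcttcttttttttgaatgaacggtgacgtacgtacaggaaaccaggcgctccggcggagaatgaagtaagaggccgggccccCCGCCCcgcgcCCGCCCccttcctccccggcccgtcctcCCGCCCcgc
The Casp1 window holds 1 AGAACA on the opposite strand, so that its reverse complement is printed, 188 bases before the start, and 1 CACGTG at 137. The Casp8 window holds 1 CCAAT at 202. GC boxes were not particular to the genes that fell, since Casp9 holds 4, Casp6 holds 1 and 2 of the 3 Xiap windows hold 1, while Casp1, Casp8 and Casp12 hold none. Casp2 has 2 CCAAT, at 132 and on the opposite strand at 54, and 1 GGGCGG on the opposite strand at 93. Bcl2 has 7 GGGCGG, and its GC content of 74.8% was above that of 95.8% of promoters, while Casp2 had 60.4%, Casp1 49.2% and Casp8 39.6%, against a median of 52.4%. Of 32851 mouse promoters cut to the same length, 32.7% hold GGGCGG, 33.8% CCAAT, 16.1% AGAACA, 12.4% TATAAA, 7.02% TTCNNNGAA, 6.91% CCGGAAG, 6.02% CACGTG and 2.98% the interferon response element. None of the 8 motifs was shared by both genes that rose. A match describes letters only and says nothing of a factor's binding, nor does the lack of one.

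Casp1 encodes caspase-1, the protease of the inflammasome. On the 4 E6.5 arrays it had 9.59, 9.51, 9.92 and 9.83, on the 4 E8.5 arrays 10.63, 10.48, 11.15 and 10.82, and on the 5 arrays of E10.5 11.50, 11.43, 10.96, 10.90 and 10.99. All E8.5 and E10.5 arrays therefore lay above all E6.5 arrays. At E12.5 it had 11.11, 11.33, 10.97, 10.72 and 10.79, on the E15.5 arrays 10.98, 11.44, 10.88, 11.16 and 10.81, and at E17.5 11.11, 11.17, 10.96, 10.68 and 10.63, ranges that overlap one another. The step from E6.5 to E8.5 was 1.06 ± 0.22 log2 (SE, 4 against 4 mice), a 2.08-fold rise with a 95% interval of 0.61 to 1.51 log2 (limma, adjusted p = 0.0058). From E8.5 to E10.5 the difference was 0.39 ± 0.21 and was not called (adjusted p = 0.346). Against E6.5, Casp1 was 2.72-fold higher at E10.5 (adjusted p = 9.49e-06) and 2.30-fold higher at E17.5 (1.20 ± 0.21, adjusted p = 5.17e-05). From E10.5 onwards no further difference was called. The means of the last 4 time points, which were 11.16, 10.98, 11.05 and 10.91, spanned 0.24 log2, and 0 of the 6 pairs among them were called by limma (0 at an unadjusted p under 0.05, smallest adjusted p = 0.466). The NP arrays were split, since replicate 1 had 10.98 and the other 3 had 9.76, 9.71 and 9.72. E6.5 minus NP was -0.33 ± 0.22 (adjusted p = 0.471), while without replicate 1 the NP mean was 9.73, against which E6.5 averaged 9.71, and E17.5 exceeded NP by 0.87 ± 0.21 (1.83-fold, adjusted p = 0.0016), or by 1.19 without NP replicate 1.

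Markers of natural killer (NK) cells, which gather in the implantation site in early mouse pregnancy and which carry cytotoxic granules, moved over the same interval as Casp1 and Casp8. The list has 9 genes and all were measured, and 7 of them were called higher at E8.5 relative to E6.5. The mean of the list was 7.52 to 7.62 on E8.5 arrays, against 5.70 to 5.97 on E6.5 arrays, with Ncr1, Klrk1 and Gzmb detected on no E6.5 array. Later the NK mean was 6.47 at E17.5, against 8.14 at E10.5, while Casp1 stood at 10.91 and 11.16. Of the 5 macrophage markers measured 0 were called from E6.5 to E8.5 (limma; 2 at an unadjusted p under 0.05), and of the 4 T cell markers 0 were called (0 unadjusted). Of the 5 decidua markers measured, 2 were called higher (Prl8a2 and Dio3) and 1 lower (Hand2) at E8.5 relative to E6.5. Their mean was 6.84 to 8.35 on E8.5 arrays, against 6.35 to 7.04 on E6.5 arrays, with 3 of the 5 detected on every array and 1 on none in each group. Over the 32 arrays the NK mean correlated with Casp1 at r = 0.77 (within groups 0.51) and with Casp8 at 0.57 (0.16). For the T cell mean these were 0.64 (0.57) and 0.46 (0.38), for macrophages 0.45 (0.09) and 0.40 (0.16), and for decidua 0.62 (0.11) and 0.52 (0.11). The part of these cells in the Casp1 and Casp8 results was not tested.

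Casp8 encodes the initiator that death receptors recruit, and its product also restrains necroptosis. It had 7.91, 7.47, 7.87 and 7.87 on the E6.5 arrays, 8.10, 8.22, 8.31 and 8.26 on the E8.5 arrays, and 8.28, 8.58, 8.32, 8.06 and 8.21 on those of E10.5. The first group again overlapped with neither of the others. The later values were 8.20, 8.30, 8.29, 7.95 and 8.44 on the E12.5 arrays, 8.05, 8.19, 8.34, 8.37 and 8.18 at E15.5, and in the last group 8.07, 8.35, 8.48, 8.29 and 8.29 at E17.5. Every array from E8.5 to E17.5 was above the highest E6.5 array, and the 5 later group means lay between 8.22 and 8.29. Against E6.5 the gene was higher by 0.51 ± 0.12 at E10.5 (adjusted p = 0.00271), by 0.46 at E12.5 (adjusted p = 0.00543), by 0.45 at E15.5 (adjusted p = 0.00592) and by 0.51 ± 0.12 at E17.5 (1.43-fold, adjusted p = 0.00174). The step to E8.5 itself, 0.44 ± 0.13 or 1.36-fold, only just passed (adjusted p = 0.049). That call was lost in 32 of 43 other settings, among them the fit without E6.5 replicate 2, the lowest array, where the step was 0.34 (adjusted p = 0.239). A second Casp8 probe, ILMN_1243876, had means of 8.37 at E6.5, 8.77 in E8.5 mice and 8.80 by E17.5. In a fit over all 18903 probes with a gene symbol its E8.5 step was 0.40 (adjusted p = 0.0948) and its E17.5 difference 0.43 (adjusted p = 0.0117). NP arrays had 8.27, 7.92, 7.80 and 7.85, of which replicate 1 lay among the arrays of E8.5 to E17.5 and the other 3 below all of them. Without E6.5 replicate 2 Casp8 also missed the F test.

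Casp2, an initiator that is activated on the PIDDosome and linked to DNA damage and to control of chromosome number, moved the other way. Its values were 10.29, 10.51, 10.28 and 10.24 in E6.5 mice, 10.12, 10.08, 10.19 and 10.13 in E8.5 mice, and by E10.5 9.73, 9.71, 9.98, 9.62 and 9.95. These 3 groups did not overlap and followed each other downwards. At E12.5 it had 9.72, 9.75, 9.40, 9.77 and 9.78, on the E15.5 arrays 9.69, 9.61, 9.68, 9.81 and 9.42, and at E17.5 9.98, 9.75, 9.82, 9.57 and 9.85. All 20 arrays from E10.5 onwards lay below every E8.5 array. The fall was spread over steps that were not called one by one: -0.20 ± 0.13 from E6.5 to E8.5 (adjusted p = 0.484) and -0.33 ± 0.13 from E8.5 to E10.5 (adjusted p = 0.134). Over both steps, Casp2 fell by 0.53 ± 0.13 at E10.5 relative to E6.5 (adjusted p = 0.00232), by 0.64 at E12.5 (adjusted p = 0.000251), by 0.69 at E15.5 (adjusted p = 9.69e-05) and by 0.53 ± 0.13 at E17.5 (1.45-fold lower, adjusted p = 0.00149). In all, 7 of the 15 pregnant pairs were called. E17.5 against E8.5 was the closest to the threshold (-0.34, adjusted p = 0.0497) and was lost in 28 of 43 other settings. NP arrays had 9.93, 10.34, 10.75 and 10.36, and E17.5 was lower than NP by 1.46-fold (adjusted p = 0.000938) although NP replicate 1 lay among the E17.5 values.

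Bcl2, the founding survival gene of its family, had the widest range of group means of the 8. On the main probe it had 7.52, 8.18, 7.91 and 7.16 in E6.5 mice, 7.37, 6.53, 6.80 and 6.74 in E8.5 mice, and by E10.5 6.501, 6.70, 6.59, 5.71 and 6.47. At E8.5 replicate 1 alone reached into the E6.5 range. At E12.5 the arrays read 6.43, 6.30, 5.67, 6.26 and 5.68, in E15.5 mice 5.72, 6.37, 6.43, 6.42 and 6.19, and by E17.5 6.89, 5.85, 5.87, 6.07 and 5.75. None of these 20 later arrays reached the lowest E6.5 array or the lowest of the NP arrays, which had 7.56, 7.90, 7.62 and 7.32. The first step, -0.84 ± 0.25 at E8.5 relative to E6.5, missed the threshold (adjusted p = 0.0588; it was called in 6 of 43 other settings), and so did the next, -0.46 ± 0.24 at E10.5 relative to E8.5 (adjusted p = 0.314). Relative to E6.5, Bcl2 was 2.46-fold lower at E10.5 (adjusted p = 0.000185), 3.08-fold lower at E12.5 (adjusted p = 7.86e-06), 2.77-fold lower at E15.5 (adjusted p = 2.46e-05) and 3.04-fold lower at E17.5 (-1.61 ± 0.24, adjusted p = 6.68e-06). Without background correction these 4 differences shrank to -0.74, -0.88, -0.82 and -0.87 log2 and were still called. Relative to NP it was 2.86-fold lower at E17.5 (adjusted p = 1.16e-05). From E10.5 on the means were 6.39, 6.07, 6.22 and 6.09 and 0 of their 6 pairs were called (0 unadjusted). Against E8.5 only E12.5 (-0.79, adjusted p = 0.0254) and E17.5 (-0.77, adjusted p = 0.018) were called on the main probe. Those 2 calls did not hold without the 6 libraries with raised placenta or yolk sac genes (adjusted p = 0.0638 and 0.127) or without E8.5 replicate 1 (adjusted p = 0.116 and 0.0943).

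Bcl2 fell on each of its 4 well detected probes. Of 6 probes, ILMN_1249021, ILMN_1249366 and ILMN_2682162 were detected on all 32 arrays and ILMN_2706514 on 31. At E17.5 relative to E6.5, in the fit over 18903 probes, ILMN_1249366 fell by 1.36 ± 0.17 (adjusted p = 4.71e-07), ILMN_2682162 by 1.41 ± 0.21 (adjusted p = 5.92e-06) and ILMN_2706514 by 1.07 ± 0.23 log2 (adjusted p = 0.000512). The call at E10.5 differed between them. ILMN_1249366 averaged 7.81 at E6.5, 7.35 in E8.5 mice and 6.65 by E10.5, and its fall of 0.70 ± 0.17 at E10.5 relative to E8.5 was called (adjusted p = 0.0174), while the other 3 were not (adjusted p = 0.318 to 0.408). Relative to E8.5, ILMN_1249366 was called at E12.5, E15.5 and E17.5 (adjusted p = 0.0019, 0.000218 and 0.000182), and so was ILMN_2682162 (adjusted p = 0.0061, 0.0156 and 0.0117). ILMN_2706514 was called at E15.5 only (adjusted p = 0.187, 0.00168 and 0.0548). The remaining pair of probes, ILMN_1215796 and ILMN_1243345, were detected on 2 arrays and 1 array and had group means of 4.43 to 4.75 throughout.

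Marker lists of several cell types also moved over the interval in which Casp2 and Bcl2 fell. The mean of the 5 decidua markers was 7.52 at E10.5, against 6.71 at E6.5, that of the 9 NK markers 8.14, against 5.85, that of the 5 red cell markers 9.06, against 6.39, and that of the 6 epithelial markers 8.51, against 7.21. The red cell mean was widely spread at E10.5, from 7.70 to 11.21 over the arrays, against 5.92 to 6.58 at E6.5. The 6 stroma markers averaged 12.23 at E10.5, against 12.48 at E6.5, and the 8 smooth muscle markers 11.69, against 12.09, each detected on all arrays of both groups. Over the 32 arrays the decidua mean correlated with Casp2 at r = -0.66 and with Bcl2 at r = -0.64, and within groups at -0.44 and -0.20. Casp2 gave -0.59 with NK cells (within groups 0.08), -0.50 with red cells (-0.36), -0.52 with epithelium (-0.31), 0.51 with stroma (0.47) and -0.01 with smooth muscle (0.10). For Bcl2 these were, in the same order, -0.57 (0.22), -0.50 (-0.32), -0.51 (-0.29), 0.35 (0.07) and -0.05 (0.02). The marker lists not given in this paragraph ran from -0.56 (T cells, within groups -0.28) to -0.01 (neutrophils, -0.22) with Casp2. With Bcl2 they ran from -0.47 (endothelium, -0.17) to -0.002 (neutrophils, -0.16). The part of these cells in the Casp2 and Bcl2 results was not tested.

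**Figure D2:**
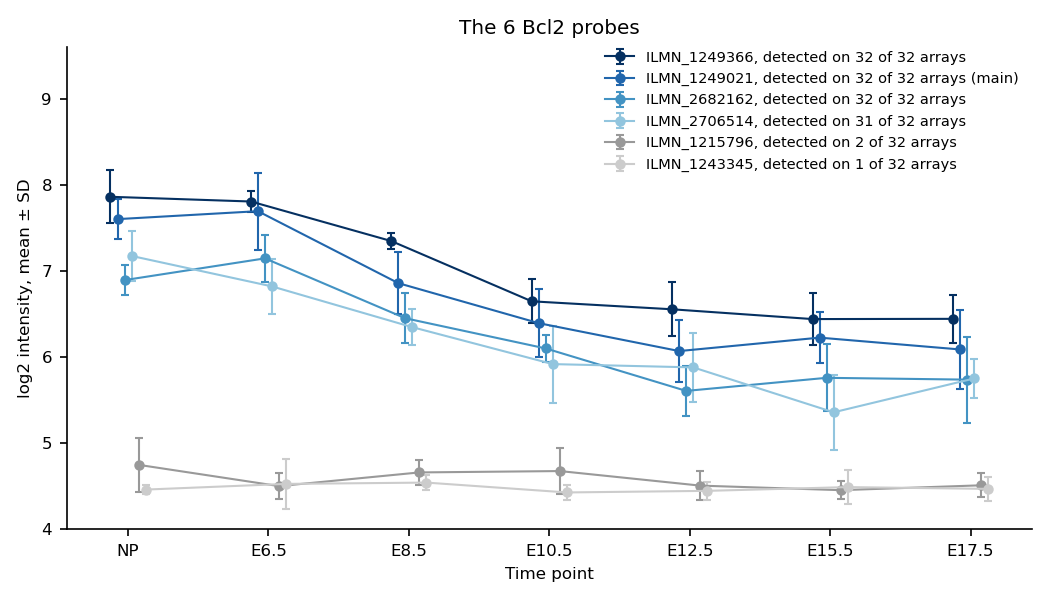
Mean log2 intensity ± SD of the 6 Bcl2 probes (vertical axis) over the 7 groups of 4 or 5 mice (horizontal axis). The 4 probes detected on 31 or 32 arrays run downwards between E6.5 and E12.5, and the 2 at the bottom stay at background.

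Casp9, the initiator of the mitochondrial route, had group means that lay in the order of time, 8.83 in NP mice and then, by time point, 8.91, 8.91, 8.94, 8.99, 9.08 and finally 9.19 at E17.5. No neighbours in that order differed (adjusted p of 0.843 or more). The E17.5 arrays had 9.33, 9.16, 9.20, 9.08 and 9.19 and the E6.5 arrays 8.84, 8.97, 8.97 and 8.85, which did not overlap, yet the difference of 0.29 ± 0.12 was not called (adjusted p = 0.0786). It was called without background correction, with array weights, and without NP replicate 2 or NP replicate 3. NP arrays were more scattered at 8.84, 8.40, 9.28 and 8.79, and E17.5 was 1.29-fold above them (0.37 ± 0.12, adjusted p = 0.0212). That call was lost in 6 of 43 other settings, among them the fit without NP replicate 2, where the difference was 0.22 (adjusted p = 0.168). It was also lost without NP replicate 4 (0.35, adjusted p = 0.0525), without E17.5 replicate 1 (0.33, adjusted p = 0.0512) and without the 6 libraries with raised placenta or yolk sac genes, where the difference was 0.38 and no smaller (adjusted p = 0.0771). The second Casp9 probe, ILMN_2758139, was detected on 1 array.

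Casp6 encodes the executioner that cleaves lamin A. Its main probe, ILMN_2923864, averaged, in order from E6.5 to E17.5, 7.77 ± 0.15, 7.66 ± 0.33, 7.73 ± 0.24, 7.69 ± 0.44, 7.91 ± 0.14 and 8.17 ± 0.27 (SD, n = 4 or 5), and 0 of the 15 pregnant pairs were called by limma (4 at an unadjusted p under 0.05). E17.5 minus E8.5 came closest (0.51 ± 0.19, adjusted p = 0.0501). The values ran from 7.80 to 8.55 at E17.5 and from 7.28 to 8.08 at E8.5, so the groups overlapped. The second probe, ILMN_2923865, averaged 8.76 at E17.5, against 8.23 at E10.5 and 8.30 in E12.5 mice. In the fit over 18903 probes its E17.5 value was called against E10.5 (0.53 ± 0.14, adjusted p = 0.00871) and E12.5 (0.47 ± 0.14, adjusted p = 0.042). In that same fit the main probe was called in 1 of the 15 pairs, E17.5 over E8.5 (adjusted p = 0.0497). The 2 Casp6 probes correlated with r = 0.63 over the 32 arrays, and the calls differed between them.

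Casp12, a caspase of the endoplasmic reticulum in rodents, lay near background and was detected on 25 of 32 arrays, on every array up to E8.5 but on 2 of 5 at E10.5, 3 of 5 in E12.5 mice and 4 of 5 in each later group. At E10.5 it had 5.28, 5.09, 5.05, 4.93 and 4.93, below the E6.5 values of 5.67, 6.09, 5.67 and 5.41 without overlap. This was its only call among pregnant pairs (1.58-fold lower at E10.5, adjusted p = 0.0187), and it was lost without E6.5 replicate 2 (-0.53, adjusted p = 0.0954). Since 3 of the 5 E10.5 arrays did not detect it, that fold is a fitted value near background, and without background correction the difference of -0.66 log2 shrank to -0.21. Casp12 and Casp1 lie on chromosome 9 with Casp4 between them and no other protein-coding gene, yet Casp12 was lower at E10.5 than at E6.5 where Casp1 was higher, and Casp4 did not pass the F test (adjusted p = 0.533). Xiap, the inhibitor that binds caspases directly, was detected only on E17.5 replicate 4, at 5.11. Its group means of 4.42 to 4.63 are background, so the array gives no level or fold for it.

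Between consecutive groups, limma called members only at E8.5 relative to E6.5. At E6.5 relative to NP 0 of the 8 genes were higher and 0 lower (0 at an unadjusted p under 0.05), against 4.59% and 3.63% of all genes. At E8.5 relative to E6.5, 2 of the 8 were higher (Casp1 and Casp8) and 0 lower, against 2.14% and 1.7%, and Bcl2 passed unadjusted only. At E10.5 relative to E8.5 there were 0 in either direction (Casp2 unadjusted, with 2.25% and 2.37% of all genes called), likewise at E12.5 relative to E10.5 (0.625% and 0.729%), at E15.5 relative to E12.5 (0.871% and 0.558%) and at E17.5 relative to E15.5 (0.305% and 0.134%), where 0 passed unadjusted as well. Relative to E6.5, Casp1 and Casp8 were the 2 higher genes at every later time point. The background for that direction was 9.75% of all genes at E10.5 and 11.6%, 12% and 12.3% at the time points after it. Casp2 and Bcl2 were lower at every time point from E10.5 on, joined at E10.5 by Casp12, when 12.6% of all genes were lower, and 15.3%, 17.2% and 17% were lower at the time points after it. Relative to NP, E17.5 had 3 higher (Casp1, Casp8 and Casp9) and 2 lower (Casp2 and Bcl2), against 14.1% and 19.1%. The Casp8 call against NP (0.33, adjusted p = 0.036) was lost in 11 of 43 other settings, among them the fits without any one of NP replicates 2, 3 and 4 or E17.5 replicates 2, 3, 4 and 5 (adjusted p = 0.0524 to 0.123).

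**Figure D3:**
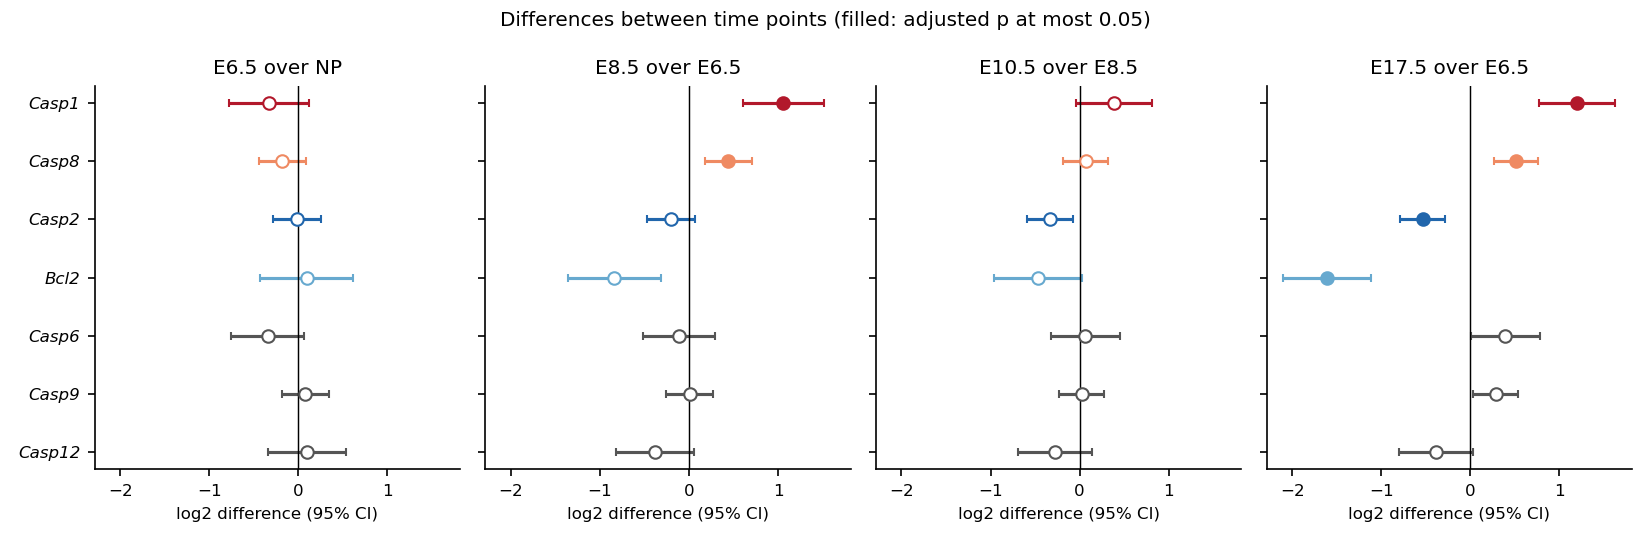
Differences in log2 intensity (horizontal axes) of 7 genes in 4 comparisons, with 95% intervals; filled points had an adjusted p of at most 0.05 and open points did not. At E8.5 over E6.5 Casp1 stands at 1.06 and Casp8 at 0.44, and at E17.5 over E6.5 Casp2 and Bcl2 stand at -0.53 and -1.61.

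Across the 32 arrays, which share time points and normalisation, these 4 genes correlated in the same pairs. Casp1 and Casp8 correlated with r = 0.81 and Casp2 and Bcl2 with r = 0.82, while Casp1 against Casp2 gave -0.77 and Casp1 against Bcl2 gave -0.67. Within groups, as deviations from the group means, these 4 values were 0.51, 0.36, -0.36 and 0.17, so that the last had the opposite sign. The genes most like each member over the 32 arrays, whose time course they share, were named by Pearson's r. Casp1 was closest to Nus1 (0.91), to Mlkl (0.91), the pore former of necroptosis, and to Capg (0.90). Casp8 was closest to Casp1 itself, then Cdc42se1 (0.80) and Osbpl3 (0.80). For Casp2 these were Rbak, Kctd12 and Luc7l3 (0.91 each), and for Bcl2 H2bc18 (0.92), Hdac2 (0.91) and Bclaf1 (0.91). Likeness was weaker for the rest. Casp9 had Tbc1d22a (0.78), Wbp1l (0.75) and Scara5 (0.74), and Casp6 had Cbr1 (0.73), Mtmr3 (0.71) and Pink1 (0.69). Casp12 had Lonp2 (0.71), Bbs2 (0.70) and Dlg2 (0.68), and Xiap, at background, had Unkl (0.65), Ewsr1 (0.65) and Nkx2-1 (0.62).

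Among the relatives of Bcl2, survival and death genes moved in a mixed way. Over all genes 12.3% were higher and 17% lower at E17.5 than at E6.5, and the counts of the lists over that span are to be read against these shares. Of the 6 survival relatives measured, 1 rose at E17.5 relative to E6.5 and 5 were not called, with a median of 0.08 log2, against -0.04 over all genes. Bcl2l10, Bcl2a1c and Bcl2a1d, among those not called, were detected on at most 1 array of any group. They lay at background, so their values do not show an unchanged level. The gene that rose was Bcl2l1, which encodes Bcl-xL. It averaged 7.72 at E10.5, against 6.95 at E8.5 (0.77 ± 0.20, adjusted p = 0.0243), and 7.57 at E17.5, against 6.68 at E6.5 (0.89 ± 0.20, adjusted p = 0.000989), so Bcl2l1 was higher in the same time points in which Bcl2 was lower. Mcl1 did not pass the F test (adjusted p = 0.592). Of the 11 death relatives measured, 5 passed the F test, against 37.9% of all genes, and at E17.5 relative to E6.5 2 rose and 1 fell with a median of 0.01. Among the death relatives, Hrk was detected on 1 array only.

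Bid, which caspase-8 cleaves to carry a death receptor signal to mitochondria, ranged from 7.79 to 8.25 at E10.5, against 6.76 to 7.07 at E8.5 and 5.73 to 6.77 at E6.5. All E10.5 arrays were above those of both earlier groups, and the steps were 1.11 ± 0.18 at E10.5 relative to E8.5 (adjusted p = 0.00026) and 1.81 ± 0.18 at E17.5 relative to E6.5 (adjusted p = 5.17e-09). Pmaip1, encoding Noxa, was 1.35 ± 0.23 higher at E17.5 than at E6.5 (adjusted p = 4.72e-05). It was detected on 1 of 4 E6.5 arrays, so the size of that difference rests on values near background at E6.5. Bmf and Bcl2l11, whose product is Bim, were instead lower at E8.5. At E8.5 relative to E6.5 Bmf fell by 1.13 ± 0.33 (adjusted p = 0.0461) and Bcl2l11 by 0.72 ± 0.18 (adjusted p = 0.0241), the 2 of 11 death relatives called there, where the list's median was -0.02, as over all genes. At E17.5 relative to E6.5 Bmf was lower (-1.06 ± 0.31, adjusted p = 0.00884) and Bcl2l11 was not called (-0.34 ± 0.17, adjusted p = 0.15). Bik passed the F test too (adjusted p = 0.00522).

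**Figure D4:**
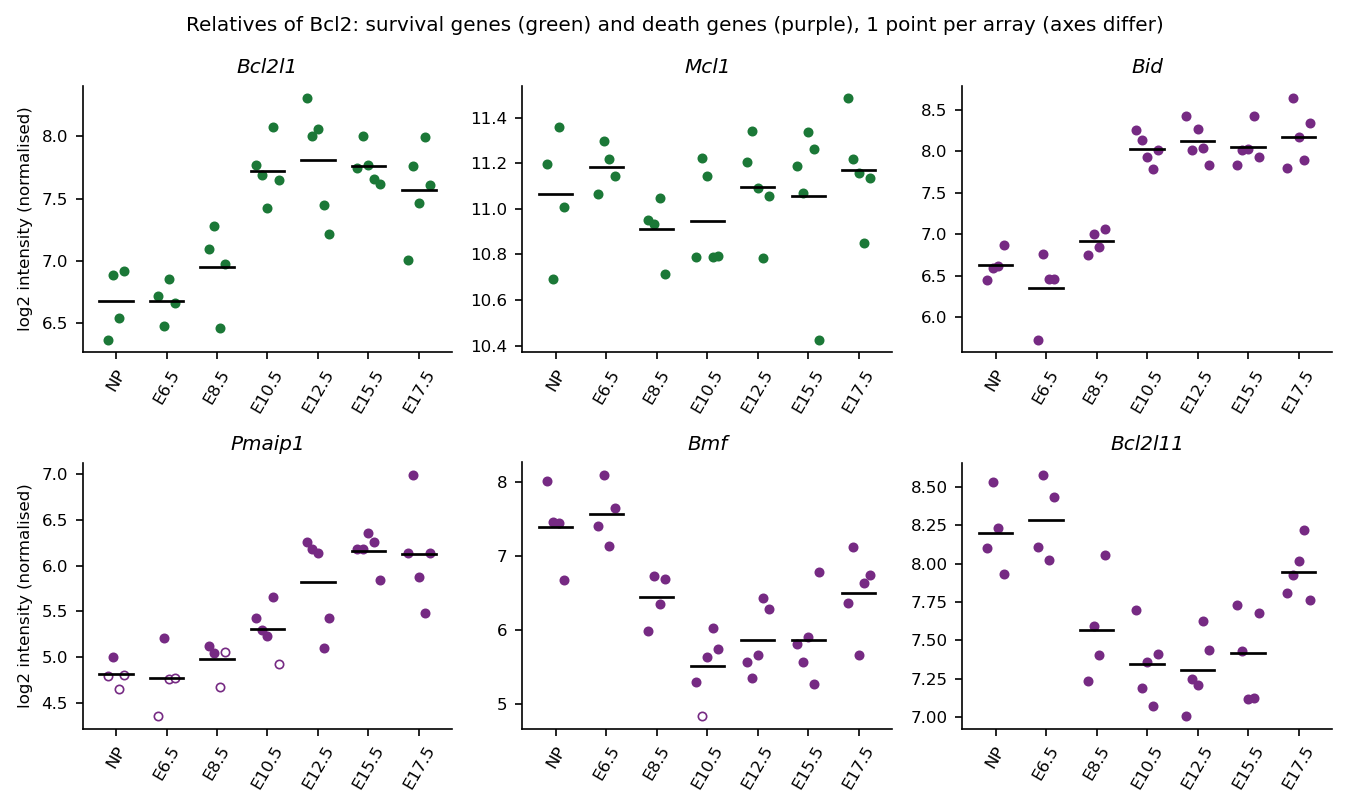
Normalised log2 intensity (vertical axes, which differ) of the survival relatives Bcl2l1 and Mcl1 and the death relatives Bid, Pmaip1, Bmf and Bcl2l11, 1 point per array (filled where detected) and a bar at each group mean. Bcl2l1 and Bid are higher from E10.5 on, and Bmf and Bcl2l11 are lower at E8.5 than at E6.5.

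On the death receptor route, 12 of 14 listed genes were measured and 7 passed the F test, against 37.9% of all genes. At E8.5 relative to E6.5 2 rose, against 2.14% of all genes, and 10 were not called, with a median of 0.24, against -0.02 over all genes. Mlkl, the pore former, ranged from 8.03 to 8.75 at E8.5, against 7.00 to 7.30 at E6.5 (1.18 ± 0.16, adjusted p = 6.86e-05). Fasl, the ligand that NK and T cells carry, ranged from 5.90 to 6.93 at E8.5, against 4.87 to 5.42 at E6.5 (1.24 ± 0.34, adjusted p = 0.0378), and averaged 5.25 at E17.5, against 5.15 at E6.5. The NK marker list described above moved over the same interval, and its part in these values was not tested. Ripk3, the kinase that activates Mlkl, passed the F test (adjusted p = 0.0023), and so did Tnfrsf25 (adjusted p = 0.00912), which was 0.71 ± 0.20 higher at E6.5 than at NP (adjusted p = 0.0252). At E17.5 relative to E6.5, where 12.3% of all genes rose, 2 of the 12 did, Mlkl (0.76 ± 0.16, adjusted p = 0.000348) and Fas, the receptor for FasL (0.70 ± 0.17, adjusted p = 0.00212). Cflar, the neighbour of Casp8 on chromosome 1 and its inhibitor, was detected on 1 array and Fadd, the adaptor of Casp8, on 10, so both lay mostly at background. Tnf and Tnfsf10, also among the genes not called, were detected on at most 1 array of any group.

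Of the 10 inflammasome genes measured, 4 passed the F test, against 37.9% of all genes. Il1b, the substrate of caspase-1, was detected on none of the 4 E6.5 arrays and on all 4 E8.5 arrays, where it ranged from 5.31 to 5.97, at least 1.45-fold above E6.5 (adjusted p = 0.0184). It was the 1 gene of the list that rose there, with a list median of 0.12, against -0.02 over all genes. Il1rn, the receptor antagonist of interleukin-1, rose by 1.21 ± 0.24 at E10.5 relative to E8.5 (adjusted p = 0.00323) and was lower again at E12.5 relative to E10.5 (-1.03 ± 0.23, adjusted p = 0.0166). Il18, the other substrate, was lower at E6.5 than at NP (-0.83 ± 0.24, adjusted p = 0.0268) and higher at E17.5 than at E6.5 (0.78 ± 0.23, adjusted p = 0.00978). Panx1, a membrane channel, also passed the F test (adjusted p = 0.000974). At E17.5 relative to E6.5, 2 of the 10 rose (Il1b and Il18), against 12.3% of all genes, and 8 were not called, with a median of 0.03. Among those 8, Nlrp1a and Mefv were detected on at most 1 array of any group, and Aim2 and Pycard on only part of the arrays.

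**Figure D5:**
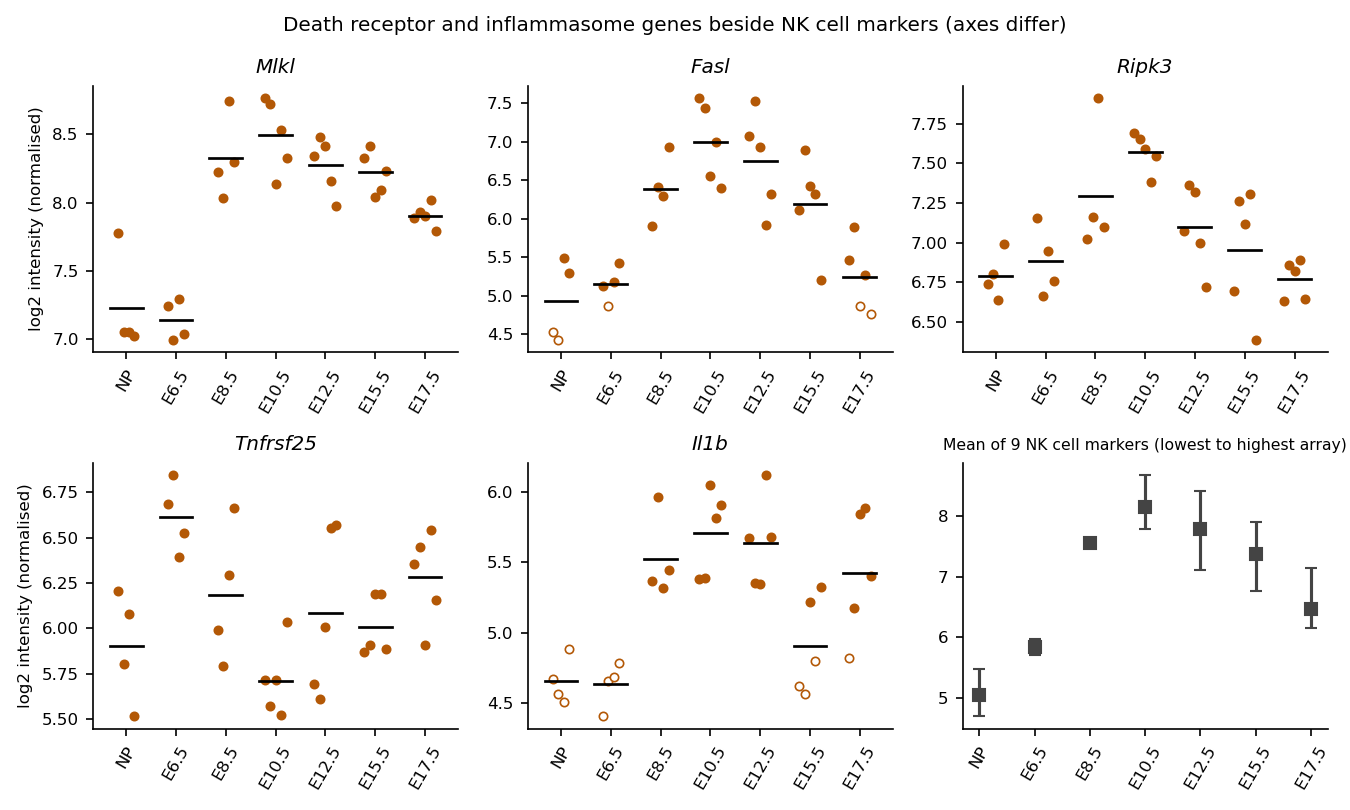
Normalised log2 intensity (vertical axes, which differ) of Mlkl, Fasl, Ripk3, Tnfrsf25 and Il1b, 1 point per array (filled where detected) with a bar at each group mean, and in the last panel the mean of 9 NK cell markers with a line from the lowest to the highest array. Mlkl, Fasl, Il1b and the NK markers are all higher at E8.5 than at E6.5, and the NK mean is 6.47 at E17.5.

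In the apoptosome and PIDDosome 3 of 4 listed genes were measured. Apaf1, the scaffold of Casp9, passed the F test (adjusted p = 0.00465), averaging 7.41 at E12.5, against 6.57 at E6.5. Pidd1, the scaffold of Casp2, was lower at E17.5 than at E6.5 (-0.59 ± 0.21, adjusted p = 0.0323), the 1 call among the 3 (median 0.27). Casp2 differed in the same direction. Pidd1 was detected on 4 arrays at E6.5 but on only 2 at E17.5. The size of its fall therefore rests on values near background at E17.5. Cycs, encoding cytochrome c, did not pass (adjusted p = 0.618). Of the 9 measured inhibitors of apoptosis and their antagonists, 1 rose and 3 fell at E17.5 relative to E6.5 with a median of -0.04, the same as over all genes. Xaf1, among those not called, was detected on 2 E12.5 arrays only. The fallers were Birc5 (-1.95 ± 0.26, adjusted p = 1.35e-06), Diablo (-0.48 ± 0.10, adjusted p = 0.000681) and Birc2 (-0.59 ± 0.19, adjusted p = 0.0153), and Naip2 rose (0.68 ± 0.24, adjusted p = 0.0295). Birc5, survivin, is also a mitosis gene, and it took a path of its own: it rose by 0.94 ± 0.28 at E8.5 relative to E6.5 (adjusted p = 0.0492) and averaged 6.49 at E17.5, against 9.37 at E8.5 and 8.43 at E6.5. Diablo, the mitochondrial antagonist of Xiap, fell by 0.37 ± 0.10 at E10.5 relative to E8.5 (adjusted p = 0.0381), and Htra2, the other antagonist, passed the F test (adjusted p = 0.00135).

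Of 7 caspase substrates measured, 1 rose and 3 fell at E17.5 relative to E6.5, with a median of -0.14, against -0.04 over all genes. Gsn, encoding gelsolin, rose by 1.56 ± 0.27 (adjusted p = 4.34e-05), and Lmnb1 fell by 1.28 ± 0.22 (adjusted p = 5.67e-05), Parp1 by 0.99 ± 0.15 (adjusted p = 6.39e-06) and Acin1 by 0.59 ± 0.19 (adjusted p = 0.0169). These are RNA levels and not cleavage of the proteins. Among 9 endoplasmic reticulum stress genes measured, 1 rose over that span and 8 were not called, with a median of 0.21. It was Trib3, at least 1.05-fold higher at E17.5 (adjusted p = 0.0399) and detected on 7 arrays in all, and Hspa5, a chaperone, passed the F test narrowly (adjusted p = 0.0421).

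The 2 caspases analysed outside the 8 were Casp4, given above, and Casp14, the caspase of cornifying epidermis. Casp14 was detected on no array from NP to E10.5, on 1 of 5 at E12.5 and on all at E15.5 and E17.5. It ranged from 6.90 to 8.33 at E17.5, against 5.83 to 6.75 at E15.5 (1.44 ± 0.21, adjusted p = 0.000183), and was at least 6.46-fold above E6.5 (adjusted p = 2.99e-12). Casp14 thus appeared only on arrays of later pregnancy. Epithelial and yolk sac markers moved over the same span. All 6 epithelial markers measured rose at E17.5 relative to E6.5, their mean running from 9.82 to 10.92 on E17.5 arrays, against 7.07 to 7.54 on E6.5 arrays, and all 6 were detected on every array of both groups. All 7 yolk sac markers rose as well, with means of 7.65 to 12.80 at E17.5, against 5.56 to 5.73 at E6.5, where 3 of the 7 were detected on no array. Their part in the Casp14 result was not tested.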

How the data were processed

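RNA of 32 mouse uteri was hybridised to Illumina MouseRef-8 v2 arrays, with samples randomised over arrays. The authors deposited summarised intensities, a detection p-value per probe, and log2 values made with limma by background correction on control probes, quantile normalisation and log2 transformation, without 5528 of 25697 probes that were not detected on any array. The log2 values were used as deposited (1 value, of Ska2, is missing) and differ by a median of 0.000323 from values recomputed from the intensities. Of 20169 probes, 18903 carry a gene symbol, and of a gene's probes the one that varied most over the arrays (highest SD) stood for it, which gave 13439 genes. All 7 groups entered 1 limma 3.58.1 fit in R 4.3.3 with moderated 2-sided tests and Benjamini-Hochberg adjustment within each comparison. Arrays have no read depth, and the number of mice limits precision. The script was tested on simulated data.

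The labels number replicates within groups, 1 mouse each. Where a group detected a gene on none of its arrays, its level there is a bound, computed against the higher of its own signal and the lowest detected signal. Named were the 8 genes with all their probes, up to 4 genes of each pathway list with the smallest F test p, and the 3 genes most correlated with each member; other genes were named where a count of 5 or fewer is given. Members and lists were chosen with earlier results of these data known. Alternatives covered background correction, normalisation, filters, the probe taken, the model, the replicate block, the samples and leaving out each array. Figures were drawn with matplotlib 3.10.9.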

Additional observations from a re-analysis of the deposited data

Results flagged for a closer look

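Of 56 groups of 4 or 5 arrays (8 genes in 7 groups) checked for a sample far from the others, 6 held one, where chance gives about 1 in 20. Casp1 had 10.98 in NP replicate 1 with the nearest NP array at 9.76. Casp2 had 9.40 in E12.5 replicate 3 with the nearest at 9.72. Casp8 had 7.47 in E6.5 replicate 2 with the nearest at 7.87. Casp9 had 9.24 in E10.5 replicate 2 with the nearest at 8.93. Bcl2 had 5.71 in E10.5 replicate 4 (nearest 6.47) and 6.89 in E17.5 replicate 1 (nearest 6.07). E12.5 replicate 3 and E10.5 replicate 4 are among the 6 libraries with raised placenta or yolk sac genes, and NP replicate 1 had the lowest array weight of all, 0.319.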

How the results depend on the processing

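The 29 differences of the 8 genes that were called between pregnant time points or at E17.5 over NP were each recomputed under 43 alternatives, of which 32 left out 1 array. Calls of other time points against NP were not recomputed, nor were calls of genes outside the 8. None of the 29 changed direction on the gene's main probe and 21 of 29 were called in every alternative. Of 8 that were lost at least once, Casp8 at E8.5 over E6.5 (32 of 43) and Casp2 at E17.5 over E8.5 (28 of 43) were lost most often. Without the 6 libraries with raised placenta or yolk sac genes their adjusted p was 0.0801 and 0.121, and that of Casp8 at E17.5 over NP was 0.13. Casp2 at E12.5 over E8.5 was lost without E12.5 replicate 3 (-0.37, adjusted p = 0.0561) and without the 6 libraries with raised placenta or yolk sac genes (adjusted p = 0.0846), and Bcl2 at E12.5 over E8.5 also without E8.5 replicate 3 (adjusted p = 0.051), E12.5 replicate 3 (adjusted p = 0.0776) and E12.5 replicate 5 (adjusted p = 0.0683), and at E17.5 over E8.5 without E17.5 replicate 5 (adjusted p = 0.0519). On the background probes of Bcl2 the sign turned 4 times: 0.0091 at E17.5 over E6.5, 0.17 at E10.5 over E6.5 and 0.0055 at E12.5 over E6.5 on ILMN_1215796, and 0.0082 at E17.5 over NP on ILMN_1243345. The 2 genes called at E8.5 over E6.5 became 1 (Casp1) under median centring, the probe with the highest mean, trended and robust moderation, the replicate block, a fit of only the groups compared, and without the 6 libraries, and 1 to 3 without single arrays. Bcl2, not called there, was called in 6 of the 43 (no background correction, array weights, and without E6.5 replicate 4, E8.5 replicate 1, E10.5 replicate 4 or E17.5 replicate 1). The F test lost Casp8 without E6.5 replicate 2 and with the highest-mean probe, and gained Casp6 with that probe and with array weights. Without background correction Bcl2 at E17.5 over E6.5 was -0.87 and over NP -0.80, at E12.5 over E8.5 -0.37 and at E17.5 over E8.5 -0.36, Casp8 at E10.5 and E17.5 over E6.5 was 0.33 and 0.34, and all were still called. At E10.5 over E8.5 0 became 1 (Bcl2) with the highest-mean probe. At E17.5 over E6.5 Casp9 was gained without background correction, with array weights and without NP replicate 2 or NP replicate 3, and Casp6 with array weights. At E17.5 over NP 5 became 3 (Casp1, Casp2 and Bcl2) in a fit of only the groups compared and without the 6 libraries, and 3 to 5 without single arrays. The cause was not tested.

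With the replicate block, 4 genes passed the F test, 6 differed in some pair, 1 was called at E8.5 over E6.5, 4 at E17.5 over E6.5, 4 at E17.5 over NP (Casp8 was lost, adjusted p = 0.0529) and 0 in the other comparisons. Arrays of the same number deviated together little (median r = 0.0423 over 90 pairs, and 7 of 32 arrays correlated best with their own number). Over 348 pairs of different numbers the median r was -0.0170. An r above 0.1 was found in 27 of the 90 pairs and in 68 of the 348. With the block, 999 genes were called at E10.5 over E8.5, against 622. The labels do not say what the numbers stand for, and these values cannot show whether they mark anything more.

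Counts over all genes moved more: 517 at E8.5 over E6.5 ranged over 170 (without E6.5 replicate 2) to 1115 (array weights), 622 at E10.5 over E8.5 over 276 (without E8.5 replicate 3) to 1096, 182 at E12.5 over E10.5 over 91 (without E12.5 replicate 5) to 491, 192 at E15.5 over E12.5 over 74 (without the 6 libraries) to 385, 59 at E17.5 over E15.5 over 12 (only the groups compared) to 166, and 1105 at E6.5 over NP over 612 (only the groups compared) to 1452. Median centring moved the median of all genes at E6.5 over NP to 0.12, against -0.01, and at E17.5 over E6.5 to -0.13, against -0.04, and the share of higher calls at E15.5 over E12.5 to 50.9%, against 60.9%. Xiap, Casp12 and Cflar lie at or near background, where these arrays limit what can be read.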
